A study of Mus musculus with 8 samples.

Results

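The Snai, Twist and Zeb genes encode the transcription factors best known for driving epithelial to mesenchymal transition. The 6 members, Snai1, Snai2, Twist1, Twist2, Zeb1 and Zeb2, were taken by gene name, with no use of their values, from 55223 gene loci measured by RNA-seq in mouse muscle stem cells. Each name matched a single locus, and 4 of the 6 reached the mean of 0.5 TPM (a gene's share of a library's transcripts, scaled by transcript length) that was set for testing, as did 16908 of all loci. The cells were satellite cells, the stem cells of skeletal muscle, isolated from C57BL/6J females of 6 to 8 weeks, all wild-type. All 8 cultures were expanded for 2 days on Matrigel and then held for 6 h in serum-free medium with 200 ng/ml of BMPR-IA-Fc, a soluble receptor that captures BMPs. Stimulated cultures then received a pulse of 1 h with 100 ng/ml BMP4 (the BMP4 group) or 100 ng/ml BMP6 (the BMP6 group). The vehicle cultures received 4 mM HCl with 0.1% BSA for the same time, as vehicle_a beside BMP4 and as vehicle_b beside BMP6. Each group has 2 libraries. The labels give the cells of each library a code, IP48 or IP54 for 1 BMP4 and 1 vehicle_a library each, and IP75 or IP77 for 1 BMP6 and 1 vehicle_b library each. The code is not spelled out, and it is read here, as an assumption, as the cell isolation that both libraries came from. Ligand and experiment therefore coincide, and each ligand is set against its own vehicle. With 2 libraries per group, p-values measure the spread between these cultures only, and nothing states how many mice an isolation pooled.

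Snai1 and Snai2 are zinc finger proteins that bind E-box sequences and recruit histone-modifying co-repressors to silence genes such as the epithelial cadherin Cdh1. Zeb1 and Zeb2 bind the same kind of E-box through paired zinc finger clusters and recruit CtBP proteins, and Zeb2 is also known as a SMAD-interacting protein. Twist1 and Twist2 are basic helix-loop-helix proteins that pair with E proteins. In mouse myoblasts, Snai1, Zeb1 and the Twist proteins are each known to hold back muscle differentiation genes, whose E-boxes are also read by MyoD. BMPs act through receptor kinases and SMAD proteins, and the SMAD complexes bind DNA at GC-rich elements and at short SMAD boxes.

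The start of the coding sequence is shown for both Snai genes because they are close relatives with opposite signs of change in every isolation. The first 60 coding bases, from GENCODE transcripts of build GRCm38, were identical at 48 positions, given in capitals.
Snai1: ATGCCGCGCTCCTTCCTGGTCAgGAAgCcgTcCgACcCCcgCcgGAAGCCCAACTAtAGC
Snai2: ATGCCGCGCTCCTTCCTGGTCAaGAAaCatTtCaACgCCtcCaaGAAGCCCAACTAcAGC
The longest run shared by the 2 transcripts was 23 nt, shorter than the 50 nt reads. The longest shared run was also 23 nt for the Zeb pair and for the Twist pair, where it lay in the coding sequence of both genes.
Twist1 and Twist2: ctgcgcaagatcatccccacgct
Reads could still be shared with other genes. Of the 50 nt windows of each transcript, 0 of 1572 for Snai1, 0 of 1579 for Twist1 and 0 of 5752 for Zeb1 were found in any other gene. The share was 0.96% for Snai2, 4.61% for Zeb2, whose windows were shared with its antisense gene Zeb2os, and 50.0% for Twist2, all with the gene Gm29100. Since the counting used no strand option, values of Zeb2 and Twist2 are uncertain to that extent.

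The 250 bases before the annotated start of Snai1, on the plus strand at chr2:167537945-167538194 (RefSeq, build GRCm38.p6), are shown because Snai1 was the member that rose. CACCTG, the E-box form that Snail and Zeb proteins bind, is in capitals.
Snai1 promoter: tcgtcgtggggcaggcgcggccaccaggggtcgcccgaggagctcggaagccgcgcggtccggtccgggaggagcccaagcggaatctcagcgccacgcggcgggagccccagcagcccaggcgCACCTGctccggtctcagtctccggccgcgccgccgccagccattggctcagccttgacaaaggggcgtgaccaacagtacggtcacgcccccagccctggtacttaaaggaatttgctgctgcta
This CACCTG began 126 bases before the start and was the only E-box of the general form CANNTG, which includes CACCTG, in the window. On either strand, CACCTG was present in 17.22% and CANNTG in 66.22% of 32851 RefSeq promoter windows of that length. Neither GGCGCC, the GC-rich element of BMP SMADs (in 9.59% of windows), nor the SMAD box GTCTG (in 42.19%) occurred in the Snai1 window. The Twist1 window held a single GTCTG on the reverse strand, 9 bases before the start, and the Twist2 window and the 4 Zeb2 windows held none of the 4 motifs. Snai2 and Zeb1 were named without a sequence. A match or its absence in this window describes these letters and says nothing of binding.

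The libraries held an estimated 48012828 to 58002740 reads each. Of 10 muscle stem cell markers, 8 were at 0.5 TPM or more in every library (all but Calcr and Chodl), while Pdgfra (fibro-adipogenic cells), Ptprc (immune cells), and Cdh1 and Epcam (epithelium) stayed below 0.5 TPM in all 8. Other markers on those lists were detected: Ly6a at 9.29 to 15.5 and Osr1 at 0.949 to 8.22 TPM of the fibro-adipogenic list, Itgam at 10.9 to 17.1 and Cd68 at 0.919 to 2.01 TPM of the immune list, and Krt19 at 1.15 to 2.24 TPM of the epithelial list. The pulse was visible in known BMP targets: the inhibitory SMAD gene Smad6 had 12.6 and 16.6 TPM in BMP4 cultures against 4.68 and 3.97 TPM in vehicle_a cultures, and 12.7 and 11.6 TPM in BMP6 cultures against 2.704 and 1.755 TPM in vehicle_b cultures. Of the marker genes, Sdc4 (muscle stem cells) was called higher for BMP4 (log2 change 1.296, limma adjusted p = 0.0223) and Cspg4 (pericytes) for the mean change (0.49, adjusted p = 0.0261), both with the isolation as a block in the fit. Myf5, also a muscle stem cell marker, was called lower for BMP4, BMP6 and their mean in that fit (limma adjusted p = 0.00326, 0.0192 and 0.00151). The shares of all tested loci called there were 0.633%, 0.148% and 0.674%. The part of these markers in the results was not tested. In bulk RNA, fewer expressing cells and less RNA per cell cannot be told apart.

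Snai1 was the member that responded. Its locus (GRCm39 chr2, 167380115 to 167384734) has 3 exons and 1 transcript. It had 95.5 and 98.1 TPM in BMP4 cultures of isolations 48 and 54, against 35.9 and 16.9 TPM in their vehicle_a cultures. It had 55.8 and 47.6 TPM in BMP6 cultures of isolations 75 and 77, against 4.66 and 3.76 TPM in their vehicle_b cultures. All 4 stimulated libraries lay above all 4 vehicle libraries, a separation seen in 0.633% of tested loci. The group means were 96.8 ± 1.81 TPM with BMP4 and 26.4 ± 13.5 TPM in vehicle_a, and 51.7 ± 5.79 TPM with BMP6 and 4.21 ± 0.636 TPM in vehicle_b (SD, n = 2 each). At least 220.5 estimated reads stood behind each of these values.

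**Figure D1:**
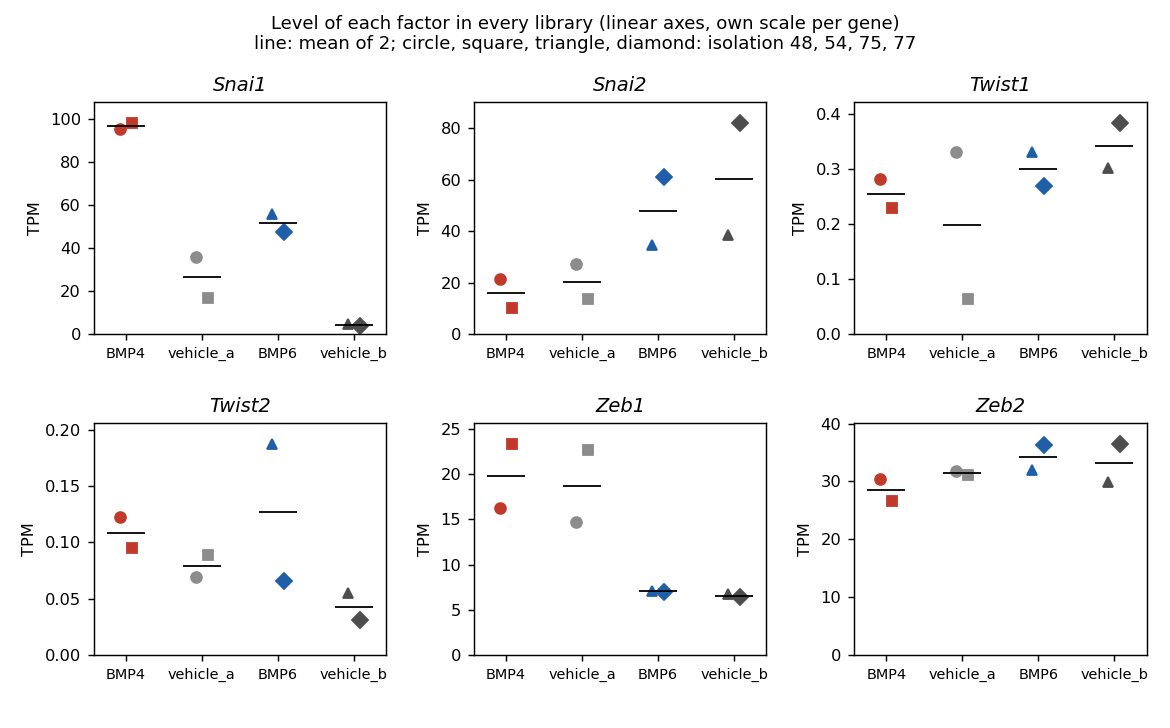
TPM of each factor (vertical, linear, own scale per gene) in the 2 libraries of each group (horizontal), with the mean of 2 as a line and the isolation as the symbol. Snai1 is the gene whose stimulated libraries, at 47.6 TPM or more, all lie above the vehicle libraries, at 35.9 TPM or less.

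Over both ligands, the mean log2 change of Snai1 was 2.71 (limma, SE 0.23, 95% interval 2.16 to 3.27, adjusted p = 0.0228), a 6.55-fold rise on the log2(TPM + 0.5) scale. Snai1 was the only 1 of the 4 tested members called in this comparison, in which 0.071% of all tested loci were called, and its change had rank 5 of 16908 loci, counted from the largest rise. With the isolation as a block the adjusted p was 0.0122 (SE 0.18), Snai1 was again the only member called, and the background was 0.674%. The blocked call was lost without isolation 75 or 77 (adjusted p = 0.0934 and 0.0894). The call without the block was lost on leaving out either BMP4, BMP6 or vehicle_b library (adjusted p = 0.0618 to 0.179) and kept without either vehicle_a library (0.00253 and 0.00433).

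For BMP6 alone, the log2 change of Snai1 was 3.47 (SE 0.33, limma adjusted p = 0.0905), an 11.1-fold difference, and 0 of 4 tested members passed, against 0.0118% of all loci. At an unadjusted p under 0.05, 1 of 4 passed without the block and 2 of 4 with it, against 1.26% and 5.72% of loci, and voom with the block called 1 of 4 (Snai1), against 0.432%. With the isolation block it rose with an adjusted p of 0.0411 (SE 0.25), and 1 of 4 members was called, against 0.148% of loci. Without isolation 75 or 77 the blocked call was lost (adjusted p = 0.387 and 0.341). For BMP4 alone, the log2 change was 1.95 (SE 0.33, limma adjusted p = 0.372), a 3.87-fold difference. In that comparison 0 of 4 members passed in either limma fit, against 0.0237% of loci without and 0.633% with the block, where Snai1 had an adjusted p of 0.0627. At an unadjusted p under 0.05, 1 of 4 members (Snai1) passed without the block and 2 of 4 (Snai1 and Snai2) with it, against 3.31% and 20.3% of all loci. Voom with the block, run on estimated reads, called 1 of 4 (Snai1), against 6.15% of loci. Leaving out vehicle_a replicate 1, the higher of that pair, gave a log2 change of 2.49 for BMP4 with an adjusted p of 0.0239.

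The size of the Snai1 response depended on how it was expressed. The ratio of stimulated to vehicle level was 2.66 and 5.82 in the BMP4 isolations 48 and 54, and 11.97 and 12.65 in the BMP6 isolations 75 and 77. The difference in level ran the other way, at 59.6 and 81.2 TPM with BMP4 and 51.1 and 43.8 TPM with BMP6. The BMP6 log2 change exceeded the BMP4 log2 change by 1.52 (SE 0.46, 95% interval 0.41 to 2.63, limma adjusted p = 1.0, and 0.301 with the block). No tested member or other locus was called in this comparison by limma in either fit (0.0%). At an unadjusted p under 0.05, 1 of 4 members (Snai1) passed in each, against 1.44% of loci without the block and 13.3% with it. Voom with the block called 0 of 4, against 0.177% of loci. Over 12 runs that each left out 1 library or 1 isolation, this difference for Snai1 ranged from 0.965 to 2.07. The largest value came from the blocked fit without isolation 54, which leaves 1 BMP4 pair, the one with the smaller rise. The vehicle levels moved with these ratios: they were lower in vehicle_b than in vehicle_a, and the part of the ligand, the experiment and the starting level cannot be told apart.

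**Figure D2:**
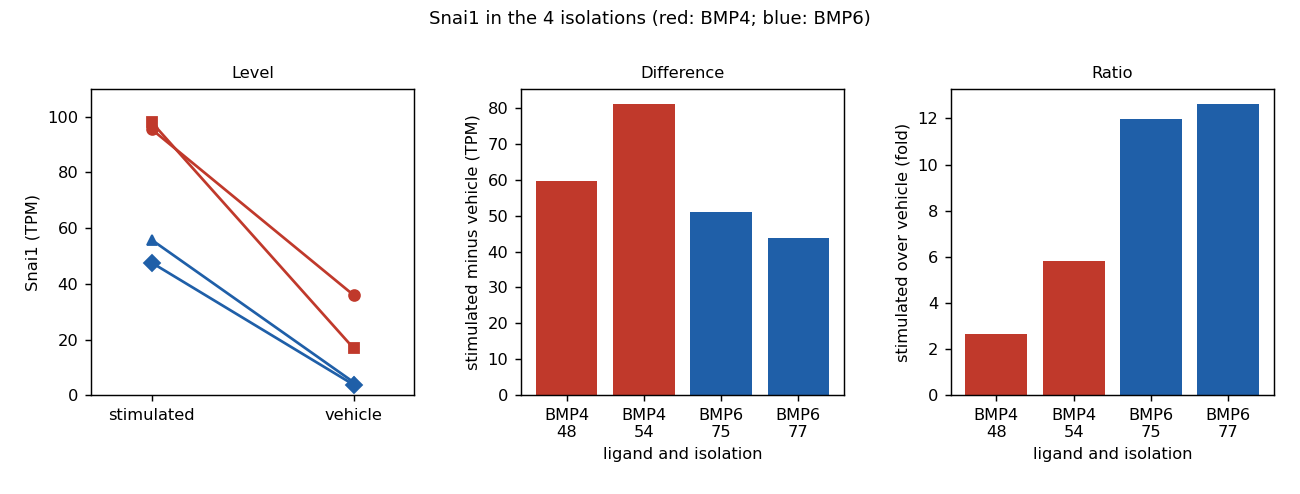
Snai1 in the 4 isolations: level in stimulated and vehicle cultures (left, TPM, a line per isolation), stimulated minus vehicle (middle, TPM) and stimulated over vehicle (right, fold), with BMP4 in red and BMP6 in blue. The differences are larger with BMP4 (59.6 and 81.2 TPM) and the ratios larger with BMP6 (11.97 and 12.65).

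The higher Snai1 signal covered the whole transcript. Scaled to each library's estimated reads, coverage in stimulated cultures was 3.32, 2.64 and 2.54 times that of vehicle in exons 1, 2 and 3 of isolation 48, and 5.62, 6.23 and 5.57 times in isolation 54. With BMP6 it was 11.7, 14.1 and 10.7 times vehicle in isolation 75, and 17.6, 12.3 and 12.2 times in isolation 77. The deposited coverage, which is not scaled, gave ratios between 2.44 and 17.4. No exon stood alone, although the ratio of the first exon in isolation 77 rests on a deposited coverage of 4.60 reads per base in vehicle. First over last exon coverage was 1.31 and 1.21 with BMP4, against 1.01 and 1.19 in vehicle_a, and 1.29 and 0.964 with BMP6, against 1.18 and 0.669 in vehicle_b. This ratio was higher in the stimulated library in 4 of 4 isolations, and it was not tested.

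**Figure D3:**
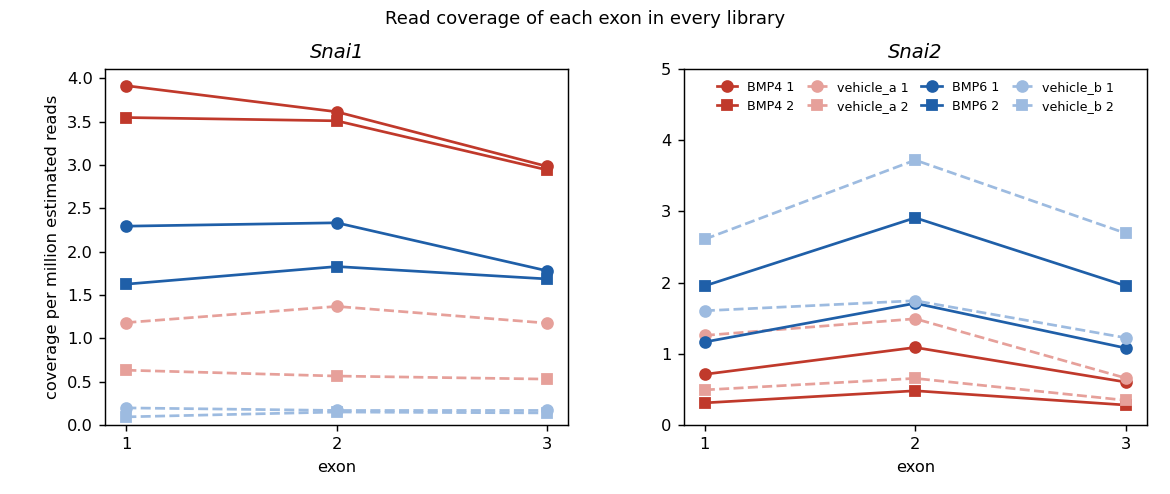
Coverage of each exon of Snai1 and Snai2 scaled to the estimated reads of its library (vertical) against the exon number, a line per library, with stimulated libraries in full colour and vehicle libraries pale and dashed. The Snai1 lines of stimulated cultures lie above those of vehicle at all 3 exons, and the Snai2 line of each stimulated culture lies below that of its own isolation's vehicle.

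Snai2 had the opposite sign. It lies at GRCm39 chr16, 14523716 to 14527249, and had 21.6 and 10.3 TPM in BMP4 cultures, against 27.4 and 13.6 TPM in vehicle_a cultures. It had 34.9 and 61.2 TPM in BMP6 cultures, against 38.65 and 82.01 TPM in vehicle_b cultures. The groups overlapped for each ligand, while within isolations the stimulated library was lower in 4 of 4, as were 9.2% of tested loci.

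The stimulated to vehicle ratios of Snai2 were 0.789, 0.761, 0.903 and 0.746 in isolations 48, 54, 75 and 77. The mean log2 change was -0.32 and did not pass with limma (SE 0.39, adjusted p = 1.0). With the isolation block the estimate was the same and more precise, with an SE of 0.05, a 95% interval of -0.46 to -0.18 and an adjusted p of 0.125. Voom on estimated reads with the block gave -0.34 with an adjusted p of 0.0401, the only setting in which Snai2 was called, with 2.05% of all loci called in that fit. For BMP4 and BMP6 alone the log2 changes were -0.36 and -0.28 (limma adjusted p = 1.0 each, and 0.122 and 0.624 with the block). Among the exons, the scaled coverage ratio was lowest at exon 1 in 3 of 4 isolations (0.565, 0.629 and 0.726 in isolations 48, 54 and 75) and was 0.749 there in isolation 77, where exon 3 was lower, also at 0.726.

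The balance of the 2 Snail genes shifted accordingly. Snai1 made up 81.5% and 90.5% of the summed Snai1 and Snai2 TPM in BMP4 cultures, against 56.7% and 55.4% in vehicle_a cultures. It made up 61.5% and 43.8% in BMP6 cultures, against 10.8% and 4.39% in vehicle_b cultures. Snai1 was the most abundant of the 6 factors in both BMP4 cultures and in the BMP6 culture of isolation 75, and came second to Snai2 in that of isolation 77. It was also the most abundant in the vehicle_a culture of isolation 48. In both vehicle_b cultures it lay below Snai2, Zeb2 and Zeb1. The 6 factors together reached 164 and 159 TPM with BMP4, against 110 and 84.2 TPM in vehicle_a, and 130 and 152 TPM with BMP6, against 80.3 and 129 TPM in vehicle_b.

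**Figure D4:**
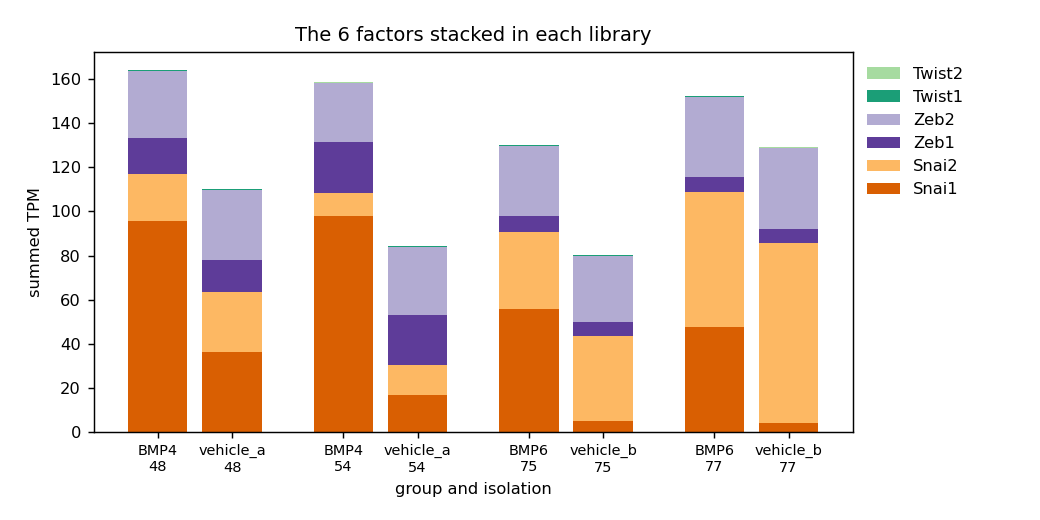
Summed TPM of the 6 factors in each library (vertical), stacked by gene, with the stimulated library left of the vehicle library of the same isolation. Snai1, at the bottom, makes up 31.2% to 61.8% of the stimulated bars and 2.92% to 32.6% of the vehicle bars, and the Twist genes are too low to see.

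Zeb2 was the steadiest member. Its levels were 30.5 and 26.6 TPM with BMP4, against 31.8 and 31.1 TPM in vehicle_a, and 32.0 and 36.3 TPM with BMP6, against 30.0 and 36.5 TPM in vehicle_b. The 8 libraries spanned a 1.37-fold range, the smallest of the 6 factors. The log2 change was -0.14 for BMP4 (SE 0.14, limma adjusted p = 1.0, and 0.27 with the block) and 0.04 for BMP6 (adjusted p = 1.0 in both fits). The 95% interval of the mean change was -0.29 to 0.19 without the block and -0.16 to 0.06 with it, which leaves out changes of the size seen in Snai1.

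Of 8 annotated Zeb2 transcripts at GRCm39 chr2, 44873644 to 45007407 (minus strand), ENSMUST00000068415 carried 43.1% to 75.7% of the Zeb2 TPM in every library. ENSMUST00000176438, which starts further upstream, carried 10.4% to 24.3%. Both ranges include stimulated and vehicle libraries. ENSMUST00000176732 was listed at 0 in all 8 libraries, and short reads divide such overlapping transcripts with little certainty. The antisense gene Zeb2os had 2.53 and 2.18 TPM with BMP4, against 1.36 and 2.21 TPM in vehicle_a, and 1.76 and 1.64 TPM with BMP6, against 1.16 and 2.35 TPM in vehicle_b. It was higher in 2 and lower in 2 isolations and did not pass for either ligand (limma adjusted p = 1.0 each).

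Zeb1 (GRCm39 chr18, 5591864 to 5775467) had 16.2 and 23.3 TPM with BMP4, against 14.7 and 22.6 TPM in vehicle_a. It had 7.12 and 6.96 TPM with BMP6, against 6.71 and 6.41 TPM in vehicle_b. The stimulated library was slightly higher in 4 of 4 isolations, as were 8.19% of tested loci. The mean log2 change of 0.09 did not pass (limma adjusted p = 1.0, and 0.425 with the block), and its 95% interval was -0.32 to 0.51 without the block and -0.02 to 0.20 with it.

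**Figure D5:**
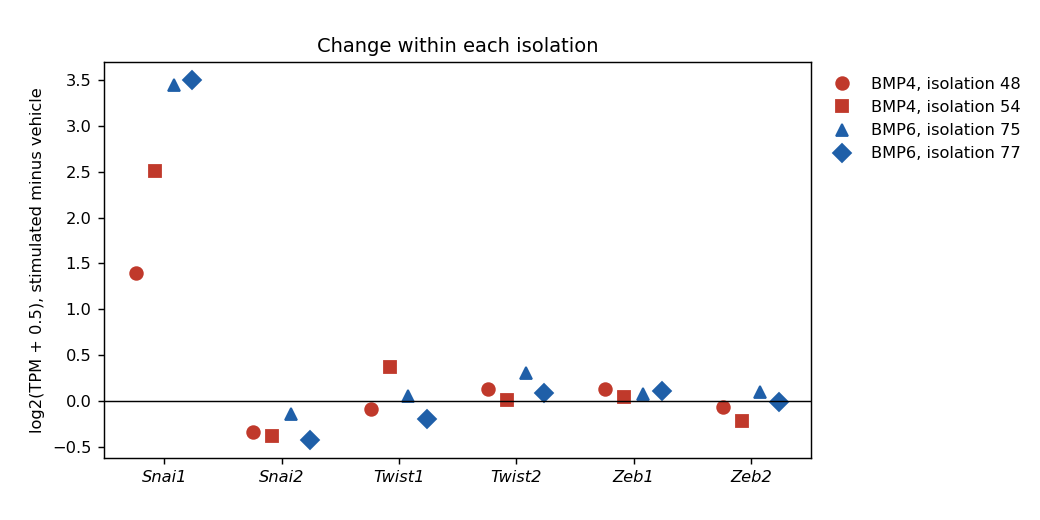
Stimulated minus vehicle on the log2(TPM + 0.5) scale (vertical) for each factor in each of the 4 isolations, with BMP4 in red and BMP6 in blue. Snai1 lies between 1.40 and 3.50, Snai2 between -0.42 and -0.15, and the other factors between -0.22 and 0.37; Twist1 and Twist2 rest on few reads.

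The Twist genes were near the lower limit of detection and were not tested. Twist1 (GRCm39 chr12, 34007670 to 34009828) had 0.282 and 0.228 TPM with BMP4, against 0.331 and 0.0643 TPM in vehicle_a, and 0.330 and 0.270 TPM with BMP6, against 0.301 and 0.383 TPM in vehicle_b. These values rest on 3.9 to 22.5 estimated reads, and the stimulated library was higher in 2 isolations and lower in 2. Twist2 (GRCm39 chr1, 91729183 to 91775750), which marks a myogenic progenitor outside the satellite cell position in adult mouse muscle, lay between 0.0658 and 0.187 TPM in stimulated cultures and between 0.0308 and 0.0891 TPM in vehicle cultures. It was higher in the stimulated library in 4 of 4 isolations on 1.6 to 10.3 reads, and a difference at that depth was not detectable with any certainty.

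Of the genes for partners and antagonists of Twist proteins, some Id genes rose. This list of 9 genes was chosen with results of these data known, as were all lists here. The E protein genes Tcf3, Tcf4 and Tcf12 did not pass in any BMP comparison, at 38.1 to 45.7, 21.9 to 24.9 and 54.9 to 62.2 TPM with BMP4, against 48.5 to 55.7, 21.0 to 23.9 and 54.6 to 55.6 TPM in vehicle_a. The Id genes encode proteins that bind E proteins and keep them off DNA. Id1 had 349 and 365 TPM with BMP4, against 149 and 100.0 TPM in vehicle_a, and 379 and 403 TPM with BMP6, against 103 and 117 TPM in vehicle_b, with no overlap. Its mean log2 change was 1.68 (SE 0.13, limma adjusted p = 0.0212). Id1 was the only 1 of 7 tested list genes called without the block, against 0.071% of all loci. With the block Id1, Id3 and Id4 were called (mean log2 changes 1.68, 1.26 and 1.12, limma adjusted p = 0.0114, 0.0446 and 0.0236), against 0.674% of loci. Id4 was low, at 1.35 and 1.61 TPM with BMP4, against 0.262 and 0.407 TPM in vehicle_a. It had 1.80 and 1.92 TPM with BMP6, against 0.725 and 0.644 TPM in vehicle_b. Id2 was not called in either fit, at 111 and 94.1 TPM with BMP4, against 91.7 and 44.6 TPM in vehicle_a, and 172 and 225 TPM with BMP6, against 123 and 131 TPM in vehicle_b. Hand1 and Hand2, other partners of Twist, were listed at 0 in all 8 libraries. The list median of the mean log2 change was 0.65, against -0.01 over all tested loci.

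Genes that act with or on the Snail proteins showed no call for either ligand. Of 14 co-repressor genes, 13 had a locus of their own (all but Ctbp2) and 0 of 13 passed for BMP4, BMP6, their mean or their difference, in either limma fit. At an unadjusted p under 0.05, 1, 0, 1 and 0 of them passed in these comparisons without the block, and 7, 0, 2 and 6 with it. The shares of all loci were 3.31%, 1.26%, 2.4% and 1.44% without the block, and 20.3%, 5.72%, 13.4% and 13.3% with it. Their median mean log2 change was -0.04, against -0.01 over all loci. The histone deacetylase gene Hdac1 had 61.0 and 53.6 TPM with BMP4, against 60.7 and 52.4 TPM in vehicle_a. Ajuba, also a co-repressor gene, had 17.7 and 18.3 TPM with BMP4, against 34.6 and 23.4 TPM in vehicle_a. Its log2 changes with BMP6 were -0.035 and 0.001. For the mean change 3 of the 13 co-repressor genes had a positive value. Of 11 genes that control Snail protein turnover, 0 of 11 passed in the same comparisons, with a median of 0.03, and at most 1 passed in any of them at an unadjusted p under 0.05. Gsk3b, the kinase that marks Snai1 protein for degradation, had 26.9 and 22.9 TPM with BMP4, against 24.01 and 24.24 TPM in vehicle_a. Usp27x, of the same list, was lower in the stimulated library of 4 of 4 isolations, as were 9.2% of tested loci. Its log2 changes were -0.376, -0.544, -0.209 and -0.493 in isolations 48, 54, 75 and 77. For the mean change 7 of the 11 turnover genes had a positive value. Snai3, the remaining Snail gene, had 0.501 and 3.35 TPM with BMP4, against 0.678 and 2.29 TPM in vehicle_a, and at most 0.0957 TPM in BMP6 or vehicle_b libraries.

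Of 11 other transcription factors associated with such transitions, 9 were tested and none passed without the block, where 4 passed for the mean change at an unadjusted p under 0.05, as did 2.4% of all loci. Foxc2, a forkhead factor of mesenchyme, had 2.25 and 1.45 TPM with BMP4, against 0.630 and 0.144 TPM in vehicle_a, and 2.66 and 3.42 TPM with BMP6, against 0.303 and 0.647 TPM in vehicle_b. Stimulated and vehicle libraries did not overlap. With the block Foxc2 rose for BMP4 (log2 change 1.44, SE 0.15, limma adjusted p = 0.0409). It also rose for BMP6 (1.87, SE 0.15, limma adjusted p = 0.0452). Its vehicle levels averaged below the 0.5 TPM set for testing. Foxc2 thus entered the test only through its stimulated libraries, which limits these calls and the lack of overlap. With the block 2 of 9 listed factors were called for BMP4 and 1 of 9 for BMP6, against 0.633% and 0.148% of loci. Sox9, a factor of cartilage and neural crest, had 26.2 and 25.5 TPM with BMP4, against 6.76 and 10.6 TPM in vehicle_a. It had 14.1 and 17.7 TPM with BMP6, against 12.2 and 16.8 TPM in vehicle_b. With the block Sox9 rose for BMP4 (1.55, SE 0.16, adjusted p = 0.0407) and did not pass for BMP6 (0.14, adjusted p = 1.0). The difference between those 2 changes did not pass either (-1.42, adjusted p = 0.253).

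The epithelial genes that these factors repress in epithelial cells were mostly silent in these cultures. Of 26 listed, 7 reached a mean of 0.5 TPM, and 3 (Tjp3, Crb3 and Ovol2) were listed at 0 in every library. Cdh1, the textbook target, had 0 and 0.0455 TPM with BMP4, against 0.0469 and 0.0511 TPM in vehicle_a, and 0.0475 and 0.137 TPM with BMP6, against 0.0873 and 0.160 TPM in vehicle_b. A fall of such a gene was not detectable at these levels. The single called gene went up: Cldn4, a tight junction claudin, had 17.1 and 17.8 TPM with BMP4, against 5.12 and 3.72 TPM in vehicle_a. It had 17.3 and 20.6 TPM with BMP6, against 6.91 and 8.57 TPM in vehicle_b. Its stimulated and vehicle libraries did not overlap, and its mean log2 change was 1.56 (SE 0.13, limma adjusted p = 0.0228). For the mean change 1 of 7 tested genes was called in each fit, against 0.071% of all loci without and 0.674% with the block. No listed epithelial gene passed in the lower direction for BMP4, BMP6 or their mean, and the list median of the mean change was -0.03. Few loci did so at all: for the mean change, 1 of 16908 was called lower without the block and 8 with it.

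The Cldn4 window, on the minus strand at chr5:134946935-134947184 (RefSeq, build GRCm38.p6), is shown because this claudin rose in the same cultures as Snai1 although it is a known Snail target in epithelial cells. CACCTG, 14 bases before the start, and the SMAD box GTCTG, 231 bases before it, are in capitals.
Cldn4 promoter: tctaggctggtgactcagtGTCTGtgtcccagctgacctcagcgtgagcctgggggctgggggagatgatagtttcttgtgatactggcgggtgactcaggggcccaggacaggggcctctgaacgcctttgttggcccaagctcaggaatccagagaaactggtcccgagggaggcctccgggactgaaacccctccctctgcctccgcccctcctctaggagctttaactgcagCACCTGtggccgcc
These letters occur in the shares of windows given for the Snai1 promoter and describe the sequence only.

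Levels of mesenchymal genes ranged widely before any pulse, with Vim among the high and Cdh11, a cadherin, among the low (2.58 to 4.15 TPM in vehicle cultures). Vim, the intermediate filament vimentin, had 1803 and 1330.0 TPM with BMP4, against 1766 and 1508 TPM in vehicle_a. Cdh2, the cadherin of mesenchymal and muscle cells, had 59.6 and 74.6 TPM with BMP4, against 55.5 and 73.5 TPM in vehicle_a. Of 18 listed genes, 17 had a locus of their own (all but S100a4) and were tested. Without the block none passed (1 at an unadjusted p under 0.05 for the mean change, against 2.4% of loci). With the block 1 of 17 was called higher for each of BMP4, BMP6 and their mean, against 0.633%, 0.148% and 0.674% of loci. At an unadjusted p under 0.05, 6, 2 and 4 of 17 passed in that fit, against 20.3%, 5.72% and 13.4% of loci. The list median of the mean change was 0.02.

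Muscle genes under E-box control, which Snai1, Zeb1 and Twist are known to restrain in myoblasts, were all 21 tested. For BMP4, 2 of 21 had a positive log2 change (median -0.08, against -0.02 over all loci). For BMP6 it was 15 of 21 (median 0.07, against 0.00), and for the BMP6 minus BMP4 difference 19 of 21 (median 0.17, against 0.01). Of all tested loci, 45.72%, 48.78% and 53.5% were positive in these comparisons without the block. The isolations of a ligand often differed in sign. Mymk changed by 0.262 in isolation 75 and -0.142 in isolation 77, and Tnni1 by -0.192 in isolation 48 and 0.065 in isolation 54. Others kept their sign, such as Acta1 with BMP6 (0.353 and 0.037). These sign counts were not tested. The median of the mean change was 0.00, and 0 of 21 passed without the block (1 at an unadjusted p under 0.05 for the mean change, against 2.4% of loci). With the block, 0.633%, 0.148% and 0.674% of all loci were called for BMP4, BMP6 and the mean change. At an unadjusted p under 0.05, 4, 3 and 3 of the 21 passed in that fit, against 20.3%, 5.72% and 13.4% of loci. Myf5, a myogenic factor of committed satellite cells, was the only 1 of the 21 called with the block, and it fell. It had 23.0 and 16.6 TPM with BMP4, against 52.4 and 38.2 TPM in vehicle_a, and 58.6 and 52.3 TPM with BMP6, against 94.0 and 86.4 TPM in vehicle_b. Its log2 change was -1.17 for BMP4 (SE 0.04, limma adjusted p = 0.00326) and -0.70 for BMP6 (SE 0.04, adjusted p = 0.0192). Myog, the myogenic factor of differentiation, had 1204 and 2131 TPM with BMP4, against 1301 and 2154 TPM in vehicle_a, and did not pass.

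The unstimulated cultures of the 2 experiments differed in several members. Snai1 was lower in vehicle_b than in vehicle_a, with a log2 difference of -2.42 (SE 0.33, limma adjusted p = 0.00924), at 4.66 and 3.76 TPM in vehicle_b, against 35.9 and 16.9 TPM in vehicle_a. Zeb1 was also lower, with a log2 difference of -1.41 (SE 0.24, adjusted p = 0.0152). Snai2 was higher in vehicle_b, with a log2 difference of 1.52, and did not pass (SE 0.55, adjusted p = 0.0805), and Zeb2 differed by 0.07 (SE 0.14, adjusted p = 0.712). The count of 2 of 4 tested members stands against a background of 27.2% of all loci, with 16.6% lower, so a call here sets no member apart. It also rests on single libraries: without either vehicle_b library neither gene was called (adjusted p = 0.0638 and 0.0806 for Snai1, 0.0771 and 0.104 for Zeb1), and without vehicle_a replicate 2 Zeb1 was not (0.0662).

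Genes of muscle differentiation also differed between the vehicles. Of the 21 muscle genes, 16 were lower and 1 (Myf5) was higher in vehicle_b, with a median log2 difference of -3.61, against -0.01 over all loci. Of all tested loci, 16.6% were called lower and 27.2% were called in either direction, which is the background for each list here. Myog had 110 and 143 TPM in vehicle_b, against 1301 and 2154 TPM in vehicle_a. The other 15 lower muscle genes were Mymk, Mymx, Mef2a, Mef2d, Cdkn1c, Ckm, Des, Acta1, Actc1, Myh3, Tnnc1, Tnni1, Tnnt1, Tnnt2 and Tnnt3. Of 17 mesenchymal genes, 10 were lower in vehicle_b, with Acta2 at -4.15 (SE 0.38, limma adjusted p = 0.005) as the extreme, and Tagln, Col1a1, Col1a2, Col3a1, Mmp2, Mmp14, Sparc, Lox and Itga5 as the others. Of 8 pericyte and smooth muscle markers, 6 were tested and 4 were lower. Their summed level was 23.0 to 25.2 TPM in vehicle_b, against 79.1 to 120 TPM in vehicle_a, with Rgs5 and Kcnj8 below 0.5 TPM in every library. Pericyte marker levels were 28.3 to 33.7 TPM with BMP6 and 72.3 to 123 TPM with BMP4. Fibro-adipogenic markers summed to 31.8 to 35.6 TPM in vehicle_b, against 15.9 to 16.2 TPM in vehicle_a, with 1 of 3 tested called higher. The largest difference was in Cd34, at 12.43 and 15.58 TPM in vehicle_b, against 1.909 and 0.3176 TPM in vehicle_a. Osr1 was also higher, at 3.368 and 8.221 TPM, against 2.219 and 1.827 TPM, while Ly6a overlapped. Pdgfra, Dcn, Lum, Dpt, Pi16, Mfap5 and Col15a1 were below 0.5 TPM in both vehicle_b libraries. The part of muscle differentiation and of the pericyte and fibro-adipogenic markers in the Snai1 and Zeb1 differences was not tested. Within vehicle_a, isolation 54 had more Myog (2154 TPM, against 1301 TPM in isolation 48), more Zeb1 (22.6 against 14.7 TPM), less Snai1 (16.9 against 35.9 TPM) and less Snai2 (13.6 against 27.4 TPM).

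Smaller lists held both directions between the vehicles (limma without the block, adjusted p under 0.05). Tested were 13 co-repressors, 11 turnover genes, 9 other transcription factors, 7 partners or antagonists of Twist and 7 epithelial genes. Of all tested loci 27.2% were called here, so a call alone sets no gene apart. Log2 differences are in brackets. Among co-repressors, Rcor1 (-0.57) and Ctbp1 (-0.35) were lower in vehicle_b, and the Polycomb genes Suz12 (0.80) and Eed (0.66) were higher. Among turnover genes, Btrc (-0.86) was lower, and Fbxo45 (0.59) and Pak1 (0.58) were higher. Among other transcription factors, Prrx1 (-0.50) and Prrx2 (-1.65) were lower and Sox4 (1.76) was higher. Of the E proteins, Tcf4 was lower (-0.59). Among epithelial genes, Tjp1 (-1.36) and Patj (-2.91) were lower, and Cldn4 (0.75) and Krt18 (1.82) were higher.

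The genes most like each member were sought among 11432 tested loci with a single, established gene name, over libraries that share isolations and vehicles, so that the values are descriptive. Across the 8 libraries, Snai1 was most like Chsy1, a chondroitin sulfate synthase gene (Pearson r = 0.99), Lfng, a Notch glycosyltransferase gene (0.98), and Gse1 (0.97). Lfng had 12.7 and 13.6 TPM with BMP4, against 4.21 and 3.11 TPM in vehicle_a, and 8.38 and 8.61 TPM with BMP6, against 1.20 and 1.24 TPM in vehicle_b. It thus shared with Snai1 both the lower vehicle_b level and the larger ratio with BMP6. By the distance between the 4 within-isolation log2 changes, the nearest genes were the homeobox genes Dlx3 (1.41) and Dlx2 (1.59), then Lfng (1.62), the Notch effector gene Hes1 (1.76) and Smad6 (1.85).

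Zeb1 was most like Synpo2, which encodes an actin-binding protein of muscle, Mef2a, a muscle transcription factor gene, and Dbndd1 (r = 1.00 each when rounded). Mef2a had 91.1 and 154 TPM with BMP4, against 80.7 and 131 TPM in vehicle_a, and 34.9 and 33.2 TPM with BMP6, against 33.1 and 31.4 TPM in vehicle_b. Like Zeb1 it was higher in isolation 54 than in 48 and lower in isolations 75 and 77. Snai2 was most like Amz1, Zscan26 and Tmem209 (r = 1.00, 0.99 and 0.99), each higher in isolation 77 than in the others and lower in the stimulated library of 4 of 4 isolations, with Amz1 at 1.27 TPM or less throughout. Zeb2, with the narrowest range, had Ears2, Zfp68 and Nfe2l1 as its nearest (r = 0.96, 0.96 and 0.94).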

How the data were processed

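Poly(A) RNA of 8 cultures (500 ng per library) was read as 50 nt single-end reads by the authors, per the labels' protocols. The submitters' processing notes name STAR 2.7.11a, SAMtools 1.17, StringTie 2.2.1 and build GRCm39. StringTie, run by the authors on their merged annotation, gave the deposited TPM and FPKM, without a strand option or a correction for multiply mapped reads, per the file headers. The coverage signal per transcript and exon was deposited with them. TPM are shares of a library and keep no depth, so reads were estimated as coverage times length over 50 nt.

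Groups came from the titles. The joint TPM table equalled each library's own table in all 55223 rows (tolerance 1e-05). The 16908 loci averaging 0.5 TPM or more entered limma 3.58.1 (R 4.3.3) on log2(TPM + 0.5), with 4 group means, a variance trend, 1 spread per gene over all 8 libraries and two-sided Benjamini-Hochberg adjusted p (threshold 0.05). On that scale the fold change of a low gene is understated. The SE of a gene is hence equal for BMP4 and BMP6. The labels give the 2 libraries of a pair the same cell code (such as IP48), which is not spelled out and was assumed to mark a shared cell isolation (deviations from group means correlated at 0.71 and 0.45 over loci in the BMP4 and BMP6 experiments). The blocked fit adds isolation as a term. The script was tested on simulated data.

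Members and lists were chosen with earlier results of these data known. Named were all members, list genes called in a comparison and the loci most like a member. Hdac1, Ajuba, Gsk3b, Usp27x, Vim, Cdh1, Cdh2, Snai3, Tcf3 and Tcf12 were added as examples after their values were seen. Alternatives changed the pseudocount, filter, unit, scaling, model and libraries. Promoters are from RefSeq (GRCm38.p6), and their coordinates are not those of the GRCm39 loci. Some list genes that were called are not reported here.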

Additional observations from a re-analysis of the deposited data

How the results depend on the processing

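Members called changed as follows. With isolation as replicate block, 1 member (Snai1) was called for BMP6, also with a pseudocount of 0.1 or 2 beside the block (1 each) and in the 4 libraries of isolations 75 and 77 alone (1). In voom, run on estimated reads with that block, 1 was called for BMP4, 1 for BMP6 and 2 (Snai1 and Snai2) for the mean change, where 1039, 73 and 346 of all loci were called. Without a filter on low TPM, 0 were called for the mean change (Snai1 adjusted p = 0.0611). The block changed no other count of members. On leaving out 1 library, or 1 isolation in the blocked fit, the members called ranged from 0 to 1 for BMP4, BMP6, the mean change and the BMP6 minus BMP4 difference, and from 0 to 2 for vehicle_b against vehicle_a. Snai1 kept its direction in every alternative run and comparison.

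Sign changes touched small values. The BMP6 minus BMP4 difference of Zeb1 was -0.004 with a pseudocount of 2, with or without the block, and -0.016 after rescaling to an equal median. On leaving out 1 library or isolation, Snai2 ranged from -0.873 to 0.159 for BMP4, from -0.821 to 0.255 for BMP6 and from -0.464 to 0.612 for the difference. Zeb1 ranged from -0.212 to 0.392 for BMP4, from -0.059 to 0.243 for the mean change and from -0.297 to 0.307 for the difference. Zeb2 ranged from -0.097 to 0.184 for BMP6, from -0.119 to 0.022 for the mean change and from -0.069 to 0.212 for vehicle_b against vehicle_a. Breaking a pair by leaving out 1 library adds the difference between isolations to these values. Depth limited the Twist genes, at 22.5 estimated reads or fewer.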
